A study of Danio rerio with 6 samples.

Results

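Ion and water channels carry salt and water through the membranes of the kidney tubule. The genes described here were the 33 of 8793 genes named on the array whose symbols mark them as potassium channels (8 genes), sodium channels (4), calcium channels (5), chloride channels or exchangers (5), CLIC proteins (3), aquaporins (5) or genes named after TRP channels (3). No gene symbol of the polycystin or barttin families matched among the named probe sets. The choice rested on symbols alone, and of several probe sets of a gene the one with the highest 6-array mean was used. The 3 genes named after TRP channels include trpc4apa and trpc4apb, whose products associate with a TRP channel and are not channels themselves.

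RNA came from adult zebrafish with a jam1a:EGFP transgene, in which the promoter of a tight junction gene drives the green reporter, and all 3 groups shared it. Irradiated collecting ducts came from fish given 25 Gy of X-rays, unirradiated collecting ducts from fish without that treatment, and whole kidney served as the tissue for comparison. Ducts were picked by their fluorescence, and each group had 2 arrays, 1 for each of 2 pools of 5 fish described as independent. Whole kidney also holds the ducts themselves, the other tubule segments and, in fish, the blood-forming tissue. The labels state neither how long after irradiation the ducts were taken nor whether the whole kidney fish were irradiated.

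In a kidney tubule, potassium channels set the membrane voltage and return potassium to the blood or urine, chloride channels let chloride leave the cell on the blood side, and aquaporins let water and, for some members, glycerol, ammonia or hydrogen peroxide cross the membrane. The collecting duct is the last tubule segment and makes the final adjustment of salt, acid and water. In mammals its water transport relies on aquaporins and its chloride exit on CLC-K channels held at the membrane by the subunit barttin. Voltage-gated sodium, potassium and calcium channels are best known from nerve and muscle.

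Levels are log2 RMA values, in which 1 unit is a doubling of signal. The medians of the 6 arrays lay between 5.82 and 5.88, and a level under them is not shown to be above background. Of the 33 genes, 10 lay above the array median on all 6 arrays, 4 on some arrays and 19 on none. Of the labelled tissue's markers, 5 of 9 measured distal tubule and collecting duct genes were higher in unirradiated ducts than in kidney and 0 were lower. Among all tested probe sets 4.27% were higher there. The mean level of the 9 genes was 9.65 and 9.54 in irradiated ducts, 9.38 and 9.39 in unirradiated ducts, and 7.33 and 7.69 in whole kidney. These markers were chosen with earlier results of these data known, so they are no independent check of the tissue label. Over all tested probe sets, the SD within a group (root mean square) was 0.250 for irradiated ducts, 0.246 for unirradiated ducts and 0.465 for whole kidney. Hybridisation controls, which are added to the sample and not made by the tissue, had mean log2 values of 9.39 and 9.64 on irradiated arrays, 10.66 and 11.15 on unirradiated arrays, and 8.48 and 10.24 on kidney arrays. Their group means differed by 1.55 between unirradiated ducts and whole kidney and by -1.39 between irradiated and unirradiated ducts, while the kidney arrays differed by 1.76 from each other. Without kidney replicate 1 the first of these differences was 0.67, and without kidney replicate 2 it was 2.43. Directions below are therefore relative to the median transcript. The 3' probe set of GAPDH exceeded the 5' one, a sign of RNA quality, by 1.13 and 0.97 on irradiated arrays, 1.16 and 2.52 on unirradiated arrays, and 0.55 and 0.91 on kidney arrays, so that unirradiated replicate 2 stood apart. Differences were tested with limma on all 15502 probe sets that were not array controls, with Benjamini-Hochberg adjustment over all of them, and a gene counted as past the threshold at an adjusted p under 0.05. P values measure the spread between these pools of 2 per group, estimated over all 3 groups together. The larger spread of the kidney arrays therefore enters every comparison, also that between the duct groups. In irradiated against unirradiated ducts 26 probe sets passed in this fit and 217 on the compared groups alone, with 0 channel genes in each.

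In unirradiated ducts 3 of the 33 channel genes were higher than in whole kidney and 0 were lower, a share of 9.09%, while 7.26% of all tested probe sets passed, 4.27% as higher and 2.99% as lower. The 3 genes were aqp8a.1, a water channel gene, kcnd1, a voltage-gated potassium channel gene, and scn3b, which encodes a sodium channel beta subunit, and kcnd1 and scn3b lay under the array median on all arrays. The median log2 fold change over the channel genes was 0.03, and over all probe sets 0.01. In irradiated ducts 2 of 33 were higher than in whole kidney (6.06%), namely aqp8a.1 and clcnk, the kidney chloride channel gene, and 0 were lower. Over all probe sets 10.5% passed in that comparison, 6.21% as higher and 4.24% as lower. Irradiated against unirradiated ducts gave 0 of 33 past the threshold by limma, and 7 at an unadjusted p under 0.05. Over all probe sets, 0.168% passed and 14.3% had an unadjusted p under 0.05. Both comparisons with whole kidney use the same 2 kidney arrays.

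**Figure D1:**
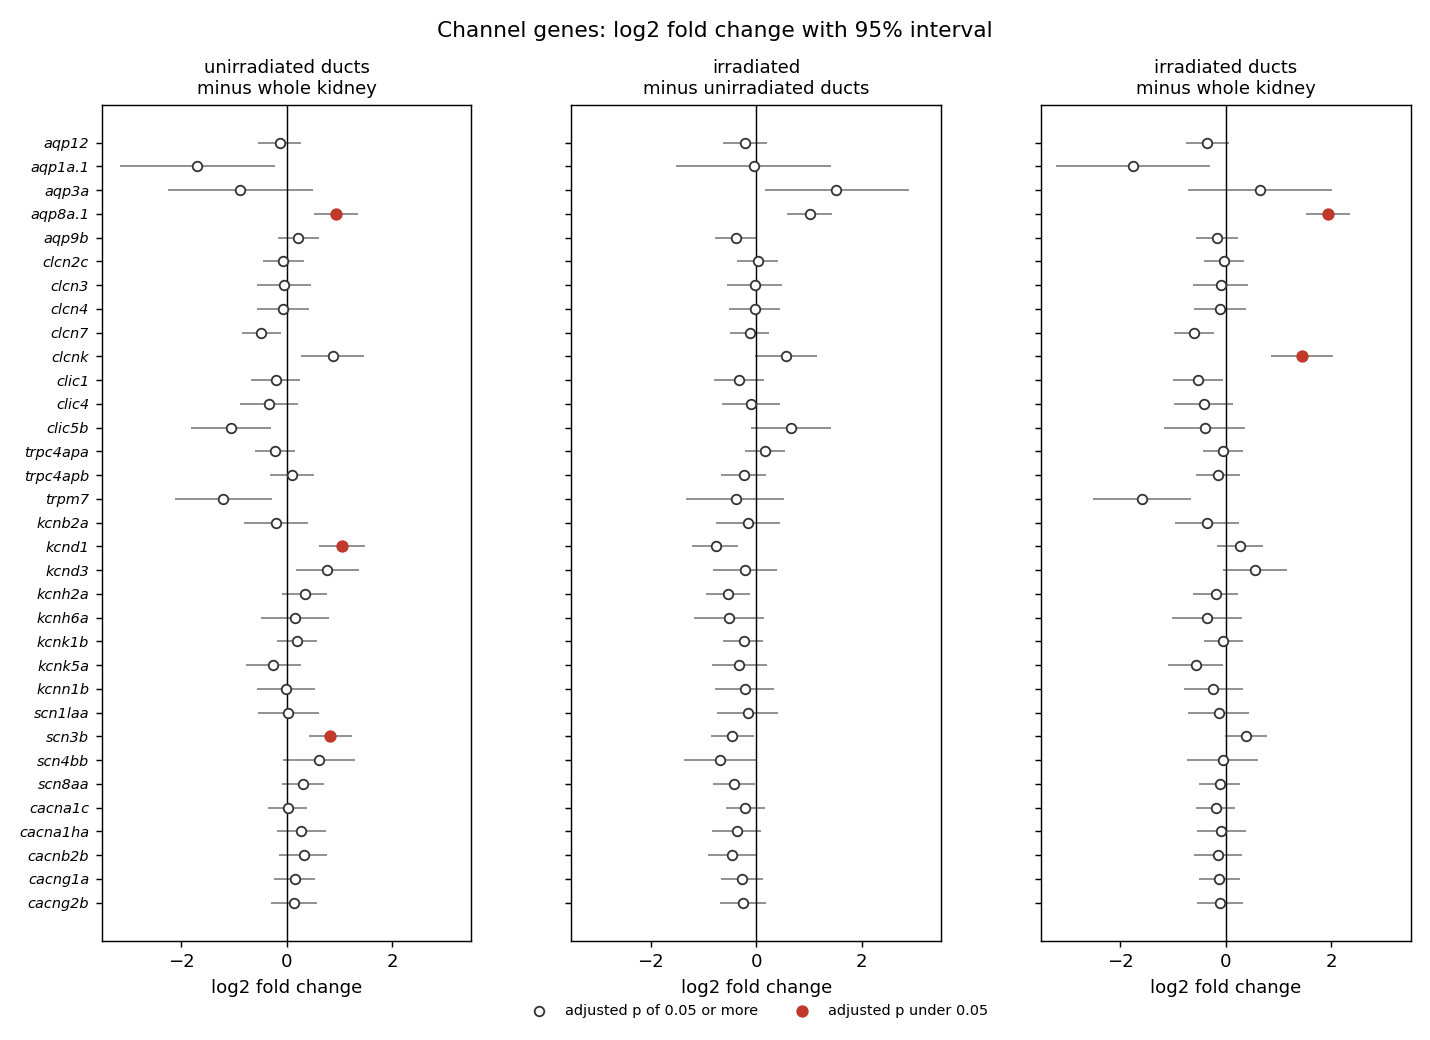
Log2 fold change of the 33 channel genes in the 3 comparisons, as points with 95% intervals from limma; filled points have an adjusted p under 0.05. The filled points are aqp8a.1, kcnd1 and scn3b on the left, none in the middle, and aqp8a.1 and clcnk on the right. Centring on hybridisation controls turns the 3 on the left to negative values with both kidney arrays, and not without kidney replicate 1. Centring without kidney replicate 2 was not run.

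The aquaporin gene aqp8a.1 stood in a separate place in each group. Its product belongs to the AQP8 type of channels, which in mammals pass ammonia and hydrogen peroxide as well as water. It read 8.16 and 8.34 in irradiated ducts, 7.33 and 7.14 in unirradiated ducts, and 6.39 and 6.23 in whole kidney tissue. No array of one group overlapped with those of another, with irradiated ducts highest and whole kidney lowest.

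Against whole kidney, unirradiated ducts held 1.90-fold more aqp8a.1 (log2 fold change 0.93 ± 0.17 SE, limma adjusted p = 0.0354), and with centring on hybridisation controls this value turned to -0.62 (adjusted p = 0.476). That turn depends on the kidney arrays kept. Without kidney replicate 1, a setting chosen after seeing the data, the same centring gave 0.34. Without kidney replicate 2 the control difference was 2.43, larger than with both arrays, and that centring was not run. The call did not hold without either unirradiated duct array (0.83 without replicate 1 and 1.03 without replicate 2), or without either irradiated array (0.93). Those fits made fewer calls over all probe sets too, so the loss is not particular to aqp8a.1. Leaving out either irradiated array gives the same fit here as the compared groups alone, so these are not separate checks. The call was also lost with the replicate number as a block (adjusted p = 0.0638). With eBayes with trend and robust it was lost as well (adjusted p = 0.0537). Among the 14 alternatives the call held in 5. These include the dimmest probe set, which repeats the main fit because the gene has 1 probe set. Irradiated ducts held 3.83-fold more than whole kidney (log2 fold change 1.94 ± 0.17, adjusted p = 0.00384). This call held in 13 of 14 alternatives, the exception being the centring on hybridisation controls with all arrays (1.78, adjusted p = 0.575). The 13 are not all separate checks. They include the same repeat of the main fit, and leaving out either unirradiated array equals the compared groups alone. Irradiated ducts held 2.01-fold more than unirradiated ducts (log2 fold change 1.01 ± 0.17, unadjusted p = 0.00113), a difference that did not pass over all probe sets (adjusted p = 0.134). In bulk tissue, more cells that express a gene and more RNA of it per cell cannot be told apart.

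The remaining aquaporin genes were spread differently. AQP1 in mammals is the water channel of proximal tubule, red cells and capillaries, and its zebrafish relative aqp1a.1 read 8.50 and 6.61 in irradiated ducts, 7.38 and 7.83 in unirradiated ducts, and 9.47 and 9.14 in whole kidney. Both kidney arrays lay above all 4 duct arrays, and the 2 irradiated arrays lay further apart than those of any other group. The log2 fold change of unirradiated ducts against kidney was -1.70 ± 0.59 (adjusted p = 0.141) and that of irradiated ducts against kidney -1.75 ± 0.59 (adjusted p = 0.131).

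On the compared groups alone the first of these values for aqp1a.1 was past the threshold (-1.70, adjusted p = 0.0491). Leaving out either irradiated array gives that same fit and is not a separate check. The second value was -2.69 without irradiated replicate 1 and -0.80 without irradiated replicate 2. Markers of red cells moved the same way. The mean level of 8 erythroid genes was 9.36 and 8.20 in irradiated ducts, 8.59 and 9.19 in unirradiated ducts, and 11.13 and 10.56 in whole kidney, with 0 of the 8 under the array median on all arrays and 4 lower in unirradiated ducts than in kidney. The red cell anion exchanger gene slc4a1a read 9.46 and 6.35 in the irradiated arrays, the widest split of the 8 erythroid genes. It passed in neither comparison with kidney (adjusted p = 0.218 and 0.117). Of 6 measured proximal tubule markers 2 were lower in unirradiated ducts than in kidney, and their mean level was 8.30 and 8.71 in the irradiated arrays. Of 4 endothelium markers 1 was lower in unirradiated ducts than in kidney. Their mean level was 6.78 and 6.77 in irradiated ducts, 6.62 and 6.76 in unirradiated ducts, and 7.35 and 7.06 in whole kidney. Among all tested probe sets 2.99% were lower in unirradiated ducts than in kidney. The part of red cells, proximal tubule or endothelium in the aqp1a.1 difference was not tested.

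The aquaglyceroporin gene aqp3a, whose mammalian counterpart AQP3 sits on the blood side of collecting duct cells, read 6.57 and 7.01 in irradiated ducts, 5.86 and 4.68 in unirradiated ducts, and 5.48 and 6.81 in whole kidney. Irradiated arrays lay above both unirradiated arrays, while whole kidney overlapped with both duct groups. The difference between irradiated and unirradiated ducts was, with all arrays, the largest of the 33 genes (log2 fold change 1.52 ± 0.55, 95% interval 0.16 to 2.89) and did not pass (adjusted p = 0.321). Without unirradiated replicate 2 it was 0.93 (adjusted p = 0.871). Unirradiated ducts against kidney gave -0.88 ± 0.55 (adjusted p = 0.363), with an interval of -2.25 to 0.49. That value was -1.54 without kidney replicate 1, -0.22 without kidney replicate 2 and -0.29 without unirradiated replicate 2.

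Both other aquaporin genes lay under the array median on all arrays. The intracellular aquaporin gene aqp12, known in mammals from the exocrine pancreas, read 5.20 and 4.99 in irradiated ducts, 5.26 and 5.36 in unirradiated ducts, and 5.35 and 5.53 in whole kidney. Its second probe set read 4.70 and 4.54, 5.05 and 5.16, and 5.62 and 5.39 in the same groups. That probe set was lower in irradiated ducts than in kidney (log2 fold change -0.88 ± 0.17, adjusted p = 0.0301), while the first was not past the threshold (-0.35 ± 0.17, adjusted p = 0.263). The aquaglyceroporin gene aqp9b lay between 2.72 and 3.23 in all groups, with no difference past the threshold.

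**Figure D2:**
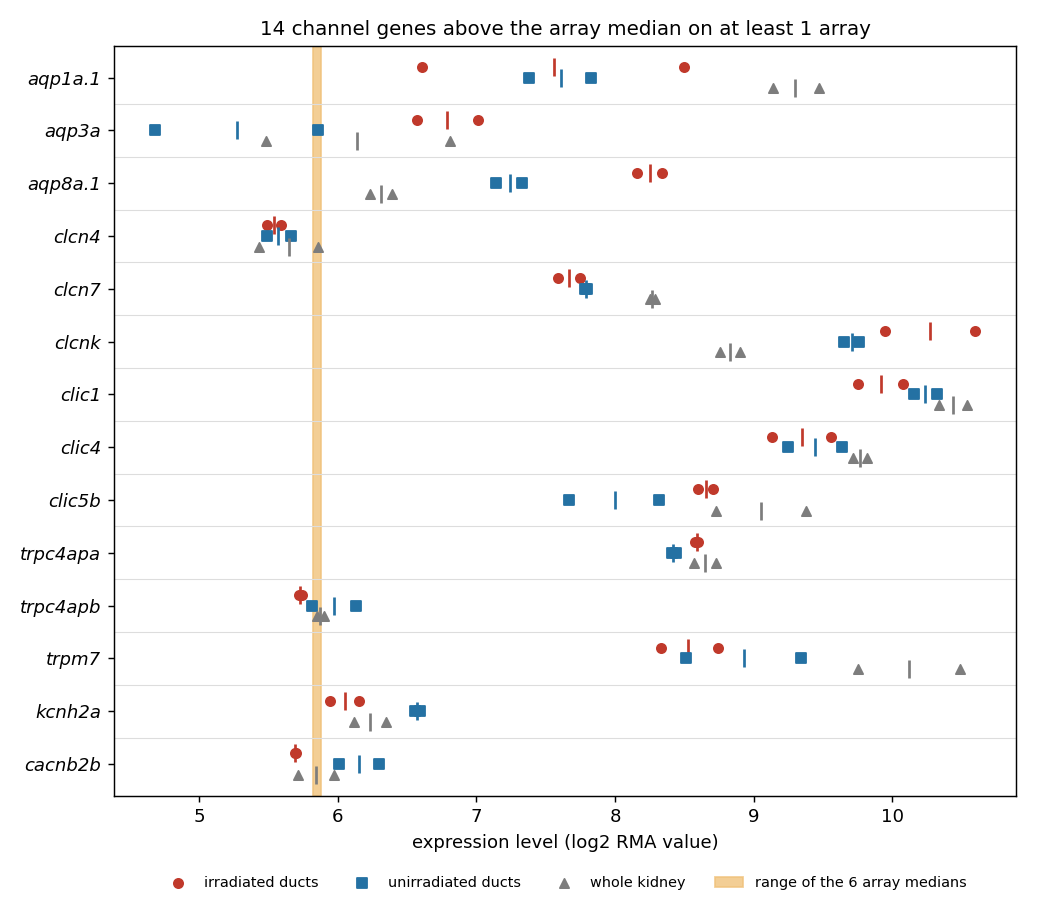
Log2 RMA levels of the 14 channel genes above the array median on at least 1 array; each point is 1 array, short vertical lines are group means (n = 2), and the shaded band spans the 6 array medians. Arrays of aqp8a.1, clcnk, clcn7, clic1, clic5b and cacnb2b fall into 3 separate pairs, in differing orders of the groups. Some of the gaps are small, and the share of all probe sets with such pairs was not counted. Those of aqp1a.1 and trpm7 are highest in whole kidney.

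Among chloride channel genes, clcnk followed the same order of groups as aqp8a.1. It encodes the CLC-K chloride channel of the distal nephron and, in fish, of ionocytes. It read 10.60 and 9.95 in irradiated ducts, 9.76 and 9.65 in unirradiated ducts, and 8.90 and 8.76 in whole kidney. The 3 groups did not overlap. Of the 33 genes, aqp8a.1 and clcnk alone had the order of irradiated ducts, unirradiated ducts and whole kidney from high to low. Separation of the 3 groups as such was not particular to them. It held in other orders for clcn7, clic1, clic5b and cacnb2b, in part by small gaps. For cacnb2b the nearest irradiated and kidney arrays read 5.70 and 5.71, and for clic5b 8.71 and 8.73. The same was true of aqp9b, cacna1ha, cacng1a, kcnd1 and scn3b, all under the array median on all arrays. The share of all probe sets with such separation was not counted.

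Irradiated ducts held 2.72-fold more clcnk than whole kidney (log2 fold change 1.44 ± 0.24, adjusted p = 0.0209). Without irradiated replicate 1 the value was 1.12, and with centring on hybridisation controls 1.28. Without either unirradiated array, which gives the same fit as the compared groups alone, it was 1.44. The call did not hold in these settings, which made fewer calls over all probe sets too. Unirradiated ducts against whole kidney gave 0.88 ± 0.24 (adjusted p = 0.0879), with a 95% interval of 0.28 to 1.47, and with centring on hybridisation controls this difference turned to -0.67, against 0.28 when kidney replicate 1 was left out as well. Irradiated against unirradiated ducts gave 0.57 ± 0.24 (adjusted p = 0.367), with an interval of -0.03 to 1.16.

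The other CLC genes did not pass in any comparison. The lysosomal chloride-proton exchanger gene clcn7 read 7.59 and 7.75 in irradiated ducts, 7.80 and 7.78 in unirradiated ducts, and 8.29 and 8.25 in whole kidney, so that both kidney arrays lay above all duct arrays. Its log2 fold change was -0.60 ± 0.15 for irradiated ducts against kidney (adjusted p = 0.0625) and -0.48 ± 0.15 for unirradiated ducts against kidney (adjusted p = 0.113). The endosomal exchanger genes clcn3 and clcn4 and the plasma membrane channel gene clcn2c, known from salt-absorbing ionocytes of zebrafish, overlapped between all groups. Their log2 fold changes lay between -0.11 and 0.03 over the 3 comparisons, with adjusted p of 0.803 or more.

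The CLIC proteins are chloride intracellular channel proteins, a family with a glutathione transferase fold that moves between cytosol and membranes. In mammals CLIC5 is concentrated in podocytes of the glomerulus and in hair cells. Its relative clic5b read 8.60 and 8.71 in irradiated ducts, 7.67 and 8.32 in unirradiated ducts, and 9.38 and 8.73 in whole kidney. The 3 groups did not overlap, with unirradiated ducts lowest. The log2 fold change of unirradiated ducts against kidney was -1.06 ± 0.31 (adjusted p = 0.0982), and without kidney replicate 2 it was past the threshold (-1.39, adjusted p = 0.0274). Between irradiated and unirradiated ducts the value was 0.66 ± 0.31 (adjusted p = 0.404). Podocyte markers were measured for 2 genes, of which podxl averaged 9.42 ± 0.04 in irradiated ducts, 9.81 ± 0.27 in unirradiated ducts and 9.63 ± 0.25 in whole kidney (SD, n = 2 each), and wt1a lay under the array median on all arrays.

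The widely expressed genes clic1 and clic4 did not pass in any comparison. For clic1 the values were 9.75 and 10.08 in irradiated ducts, 10.32 and 10.16 in unirradiated ducts, and 10.54 and 10.34 in whole kidney. For clic4 they were 9.13 and 9.56, 9.25 and 9.64, and 9.72 and 9.82 in the same groups. Log2 fold changes of the 2 genes lay between -0.52 and -0.10, with adjusted p between 0.150 and 0.875.

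The channel kinase gene trpm7, needed for magnesium uptake and for skeletal and kidney mineral balance in zebrafish, was measured by 2 probe sets that both read highest in whole kidney. The probe set with the higher mean read 8.33 and 8.74 in irradiated ducts, 8.51 and 9.34 in unirradiated ducts, and 9.75 and 10.49 in whole kidney. It did not pass for irradiated ducts against kidney (log2 fold change -1.59 ± 0.38, adjusted p = 0.0531) or for unirradiated ducts against kidney (-1.20 ± 0.38, adjusted p = 0.114). The other probe set read 6.72 and 7.0 in irradiated ducts, 6.23 and 6.16 in unirradiated ducts, and 8.01 and 8.58 in whole kidney. Its level was 4.30-fold lower in unirradiated ducts than in kidney (-2.11 ± 0.24, adjusted p = 0.0118) and 2.71-fold lower in irradiated ducts than in kidney (-1.44 ± 0.24, adjusted p = 0.0200).

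Taking the mean of both trpm7 probe sets, with 1 value per gene in the fit, gave a log2 fold change of -1.65 for unirradiated ducts against kidney (adjusted p = 0.0275) and -1.51 for irradiated ducts against kidney (adjusted p = 0.0239). Between irradiated and unirradiated ducts the 2 probe sets pointed in opposite directions, at -0.39 ± 0.38 and 0.67 ± 0.24, and neither passed (adjusted p = 0.672 and 0.315). Without kidney replicate 1 the first probe set was past the threshold for irradiated ducts against kidney (-1.96, adjusted p = 0.0254).

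Some markers of other kidney cells were lower in the ducts too, and others were not. In unirradiated ducts against kidney 0 of 2 podocyte, 0 of 4 multiciliated and 0 of 6 interrenal genes were lower. Of 4 endothelium genes 1 was lower, and of 4 thrombocyte genes 2 were higher and 1 lower. Of 4 lymphoid genes 0 were lower there and 2 in irradiated ducts. Over all probe sets 2.99% were lower in unirradiated ducts against kidney and 4.24% in irradiated ducts against kidney. Of 7 myeloid genes, 6 were lower in irradiated ducts than in kidney and 3 in unirradiated ducts, and of 8 erythroid genes 3 and 4 were lower. The myeloid gene mpx was the exception in irradiated ducts against kidney (1.46 ± 0.40, adjusted p = 0.0791). Of 6 proximal tubule genes, 1 was lower in irradiated ducts and 2 in unirradiated ducts, with median log2 fold changes of -1.48 and -1.56. Mean levels of the proximal tubule genes were 8.30 and 8.71 in irradiated ducts, 7.85 and 9.10 in unirradiated ducts, and 9.61 and 10.47 in whole kidney, with 0 of the 6 under the array median on all arrays. The part of these cells in the trpm7 values was not tested.

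**Figure D3:**
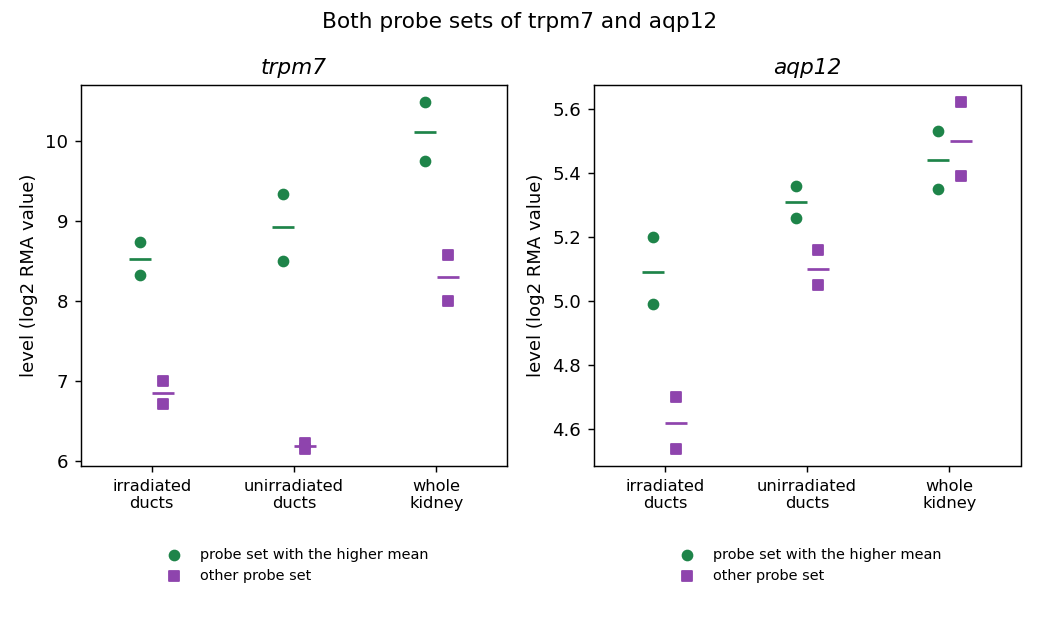
Log2 RMA levels of both probe sets of trpm7 (left) and aqp12 (right) on each array by group, with horizontal ticks at the group means (n = 2). Both trpm7 probe sets read highest in whole kidney, at 9.75 and 10.49 and at 8.01 and 8.58; each axis starts above 0 and the 2 axes differ.

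The genes trpc4apa and trpc4apb encode proteins that bind the channel TRPC4 and, in mammals, act in a ubiquitin ligase complex. For trpc4apa the values were 8.58 and 8.60 in irradiated ducts, 8.41 and 8.44 in unirradiated ducts, and 8.73 and 8.57 in whole kidney, with no difference past the threshold (adjusted p between 0.395 and 0.873). The copy trpc4apb lay close to the array medians, at 5.72 and 5.74, 6.13 and 5.81, and 5.85 and 5.90 in the same groups. Its 4 probe sets gave log2 fold changes between -0.31 and 0.10, none past the threshold.

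Among potassium channel genes, kcnd1 was past the threshold and lay under the array median on all arrays. It encodes a Kv4 channel of the Shal type, which carries the fast A-type current of neurons and muscle. It read 3.52 and 3.51 in irradiated ducts, 4.17 and 4.41 in unirradiated ducts, and 3.11 and 3.38 in whole kidney. Unirradiated ducts lay above both other groups. Against whole kidney the unirradiated ducts were higher (log2 fold change 1.05 ± 0.18, adjusted p = 0.0296), and with centring on hybridisation controls the value turned to -0.50 (adjusted p = 0.567), or to 0.25 without kidney replicate 1. Both kidney levels lay under the lower quartiles of their arrays, 4.22 and 4.28. So did both irradiated levels (quartiles 4.20 and 4.16) and that of unirradiated replicate 1 (quartile 4.34). The sizes of the kcnd1 differences in all 3 comparisons are therefore uncertain. Without unirradiated replicates 1 and 2 in turn the value was 1.17 and 0.93, and without either irradiated array 1.05. The call was lost in each of these fits, which made fewer calls over all probe sets too. Irradiated ducts differed from unirradiated ducts by -0.77 ± 0.18 (unadjusted p = 0.00514, adjusted p = 0.206).

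The related Kv4 gene kcnd3 read 4.40 and 4.90 in irradiated ducts, 4.64 and 5.08 in unirradiated ducts, and 4.06 and 4.12 in whole kidney. All 4 duct arrays lay above both kidney arrays, and neither comparison passed (0.56 ± 0.24 for irradiated ducts, adjusted p = 0.220, and 0.77 ± 0.24 for unirradiated ducts, adjusted p = 0.116). The ERG channel gene kcnh2a, whose human counterpart repolarises the heart, was the potassium channel gene above the array median on all 6 arrays. It read 5.94 and 6.15 in irradiated ducts, 6.59 and 6.56 in unirradiated ducts, and 6.12 and 6.35 in whole kidney. After irradiation the difference was -0.53 ± 0.17 (unadjusted p = 0.0223, adjusted p = 0.292).

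The acid-sensitive leak channel gene kcnk5a, whose mammalian counterpart TASK-2 serves bicarbonate recovery in the proximal tubule, read 3.51 and 3.72 in irradiated ducts, 3.79 and 4.09 in unirradiated ducts, and 4.0 and 4.38 in whole kidney. Irradiated ducts against kidney gave -0.57 ± 0.21 (adjusted p = 0.159). The remaining genes of this family were kcnb2a, kcnh6a, kcnk1b and kcnn1b, of the Kv2, ERG, leak and calcium-activated types, and all 4 lay under the array median on all arrays. Their log2 fold changes were between -0.51 and 0.19, with adjusted p of 0.437 or more. For kcnb2a the value in irradiated ducts against kidney was -0.69 (adjusted p = 0.0399) without kidney replicate 2 and -0.01 without kidney replicate 1. The kcnj genes of inward rectifier potassium channels, which include the secretory channel ROMK, had no match among the named probe sets.

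The sodium channel beta subunit gene scn3b read 4.67 and 4.91 in irradiated ducts, 5.19 and 5.30 in unirradiated ducts, and 4.39 and 4.43 in whole kidney, all under the array medians. Beta subunits shape the gating of voltage-gated sodium channels and bind neighbouring cells. The 3 groups did not overlap, with unirradiated ducts highest. Against whole kidney the unirradiated ducts were higher (log2 fold change 0.83 ± 0.16, adjusted p = 0.0415), and with centring on hybridisation controls the value turned to -0.72 (adjusted p = 0.411), or to 0.14 without kidney replicate 1. Levels this low leave the size uncertain. The call was lost without unirradiated replicate 1 (0.89) or 2 (0.78) and without either irradiated array (0.83). Those fits made fewer calls over all probe sets too. It was also lost with the replicate number as a block (0.83, adjusted p = 0.0647) and without kidney replicate 1 (0.81). Irradiated against unirradiated ducts gave -0.45 ± 0.16 (adjusted p = 0.320).

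The other beta subunit gene, scn4bb, read 4.05 and 3.82 in irradiated ducts, 4.23 and 5.0 in unirradiated ducts, and 4.05 and 3.94 in whole kidney. The channel-forming alpha subunit genes were scn8aa, at 3.40 and 3.64, 3.94 and 3.95, and 3.63 and 3.64 in the same groups, and scn1laa, between 3.82 and 4.42 in all groups. None of these 3 genes passed in any comparison (adjusted p of 0.222 or more).

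Calcium channel genes had 0 of 5 past the threshold in each comparison. Over all probe sets 7.26% passed in unirradiated ducts against kidney, 10.5% in irradiated ducts against kidney and 0.168% in irradiated against unirradiated ducts. With 5 genes, a count of 0 is not set apart from these shares. The beta subunit gene cacnb2b, which brings the pore-forming subunit to the membrane, read 5.70 and 5.69 in irradiated ducts, 6.01 and 6.30 in unirradiated ducts, and 5.71 and 5.97 in whole kidney. After irradiation the difference was -0.46 ± 0.18 (unadjusted p = 0.0475, adjusted p = 0.347). The L-type gene cacna1c, the T-type gene cacna1ha, the skeletal muscle subunit gene cacng1a and the gene cacng2b, whose product traffics glutamate receptors in mammals, lay under the array median on all arrays. Their log2 fold changes were between -0.36 and 0.28, with adjusted p of 0.389 or more.

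**Figure D4:**
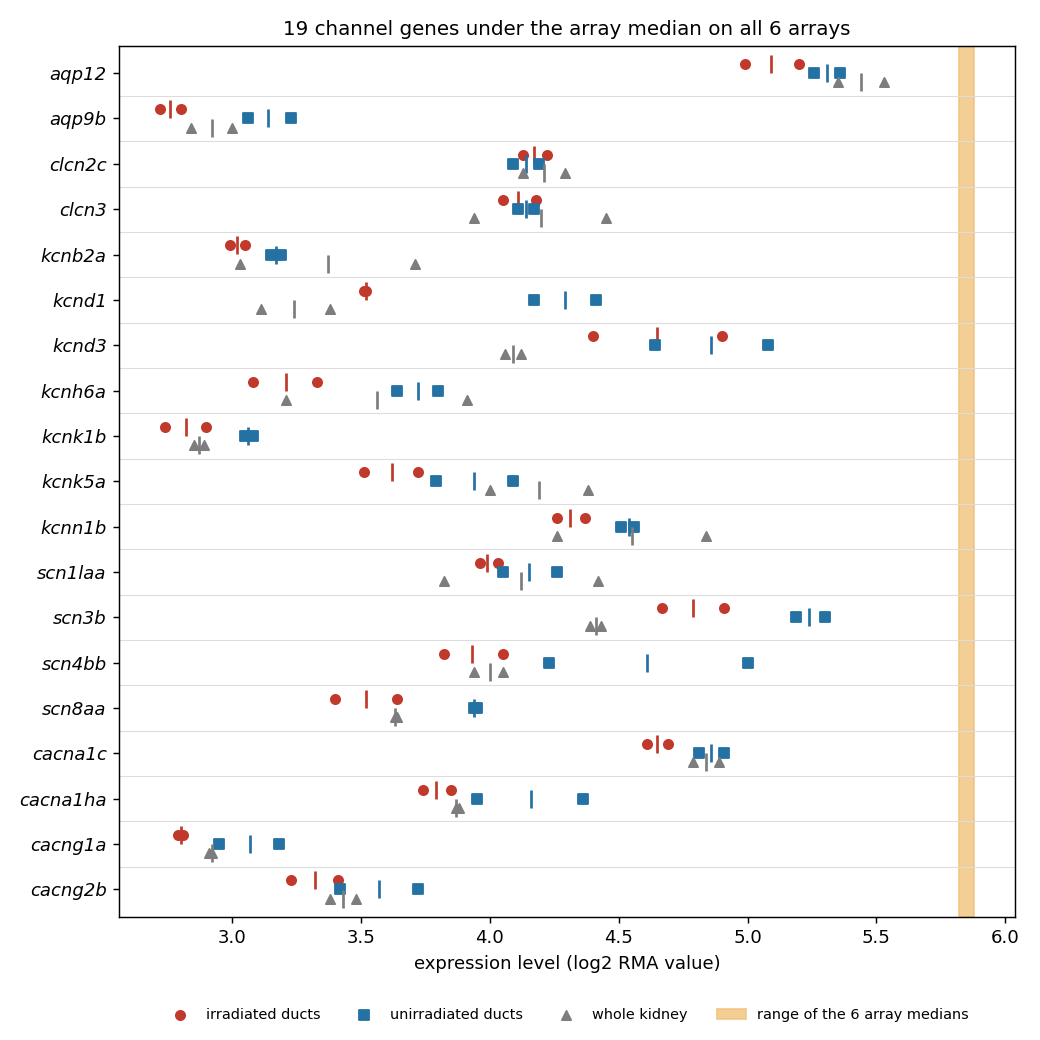
Log2 RMA levels of the 19 channel genes under the array median on all 6 arrays; each point is 1 array, short vertical lines are group means (n = 2), and the shaded band spans the 6 array medians. In kcnd1, kcnd3 and scn3b the unirradiated ducts lie above whole kidney without overlap. So they do in aqp9b, cacna1ha, cacng1a, kcnk1b, scn4bb and scn8aa, and the share over all probe sets was not counted. For kcnd1, kcnd3 and scn3b, centring on hybridisation controls turns the differences to negative values with both kidney arrays. Without kidney replicate 1 they are 0.25, 0.07 and 0.14, and centring without kidney replicate 2 was not run.

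Markers of muscle and nerve, where voltage-gated channels are best known, also differed between ducts and kidney. Of 12 measured skeletal muscle genes 5 were higher in unirradiated ducts than in kidney and 0 lower, and their mean level was 6.49 and 6.18 in irradiated ducts, 6.66 and 7.49 in unirradiated ducts, and 5.24 in both kidney arrays, with 4 of the 12 under the array median on all arrays. All 5 smooth muscle genes were higher in unirradiated ducts, with mean levels of 10.06 and 10.71, 10.70 and 10.64, and 7.59 and 6.49 in the same groups. Of 10 neuron and glia genes 2 were higher, snap25a and mbpa, and the mean levels were 5.65 and 5.77, 5.76 and 5.82, and 5.65 and 4.84. The neuronal gene elavl3 was under the array median on all arrays, and so were all 4 heart muscle genes. Among all tested probe sets 4.27% were higher in unirradiated ducts than in kidney. The part of muscle and nerve in the values of kcnd1 and scn3b was not tested.

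After irradiation, 27 of the 33 channel genes had a negative log2 fold change against unirradiated ducts, with a median of -0.22, while 56.0% of all probe sets were negative, with a median of -0.05. Of the 33, 21 were lower without overlap between the groups (63.6%), against 33% of all probe sets, and 5 were higher without overlap (15.2%), against 23.8%. The 5 were aqp3a, aqp8a.1, clcnk, clic5b and trpc4apa. Centring on hybridisation controls adds 1.39 to every value of this comparison, and all 27 negative values then turn positive. Without unirradiated replicate 2, whose GAPDH difference stood apart, 24 of the 33 were negative, with a median of -0.17.

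Most markers of white blood cells had lower levels after irradiation as well. Of 7 myeloid genes 3 were lower and 0 higher past the threshold, with a median log2 fold change of -1.86. The myeloid gene mpx went the other way without passing (1.47 ± 0.40, adjusted p = 0.246). Both its irradiated arrays lay above both unirradiated arrays. Mean levels of the 7 were 7.89 and 8.11 in irradiated ducts, 9.58 and 9.46 in unirradiated ducts, and 10.47 and 10.63 in whole kidney. Of these genes, 0 lay under the array median on all arrays. Of 4 lymphoid genes 1 was lower past the threshold, with a median of -0.61 and mean levels of 4.63 and 4.62, 5.69 and 5.66, and 5.73 and 5.53 in the same groups, and 3 of the 4 lay under the array median on all arrays. Among all tested probe sets 0.168% passed in irradiated against unirradiated ducts, in either direction. The part of white blood cells in the channel genes' values was not tested.

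The negative values of the channel genes went with low levels. Of the 21 channel genes with a mean level under the median over all probe sets (5.87), 20 were negative, with a median of -0.24. Of all 7751 probe sets under that median, 70.9% were negative, with a median of -0.14. The lower quartile of levels was 4.20 and 4.16 on the irradiated arrays, 4.34 and 4.36 on the unirradiated arrays, and 4.22 and 4.28 on the kidney arrays. The 12 channel genes at or above the median split into 7 negative and 5 positive, with a median of -0.07, where all such probe sets had a median of 0.08. The part of the low-level distribution in the channel genes' median was not tested.

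The 7 genes with an unadjusted p under 0.05 after irradiation were aqp8a.1 and aqp3a as higher, and kcnd1, kcnh2a, scn3b, scn8aa and cacnb2b as lower. Of all probe sets 7.20% were higher and 7.07% lower at that level, and the channel genes had 6.06% and 15.2%. Over the 14 alternatives, 0 of the 33 passed the adjusted threshold except under centring on hybridisation controls. With the replicate number as a block 0 of all 15502 probe sets passed, so the 0 there is not particular to channel genes. Fits without a duct array have 1 array in its group and cannot show that the 0 is stable. With that centring aqp3a passed (2.91, adjusted p = 0.0451), and when kidney replicate 1 was left out as well 31 of the 33 passed as higher, while 14759 of all 15502 probe sets passed in either direction. From 3 to 31 of the 33 had an unadjusted p under 0.05.

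Channel families outside the 33 genes had 22 measured members of 82 listed. In unirradiated ducts against kidney 0 were higher and 2 lower, namely orai1a, the pore of store-operated calcium entry (-1.24 ± 0.19, adjusted p = 0.0245), and p2rx4a, an ATP-gated cation channel gene (-1.44 ± 0.25, adjusted p = 0.0306). In irradiated ducts against kidney 2 were higher and 1 lower. The higher genes were lrrc8c, a subunit of the volume-regulated anion channel (2.25 ± 0.39, adjusted p = 0.0230), and tmem38b, a cation channel of the endoplasmic reticulum (0.85 ± 0.18, adjusted p = 0.0392), and the lower one was orai1a again (-1.23 ± 0.19, adjusted p = 0.0179). The median over the 22 was 0.01 in both comparisons. Over all probe sets 4.27% were higher and 2.99% lower in unirradiated ducts against kidney, and 6.21% and 4.24% in irradiated ducts against kidney.

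Pumps, carriers and regulators that work with kidney channels had 33 measured members of 76 listed. In unirradiated ducts against kidney 3 were higher (9.09% of the 33) and 0 lower, with a median of 0.10. Over all probe sets 4.27% were higher and 2.99% lower in that comparison, and 6.21% and 4.24% in irradiated ducts against kidney. The sodium pump alpha subunit gene atp1a1a.3 read 13.62 and 13.41 in irradiated ducts, 13.07 and 12.86 in unirradiated ducts, and 9.57 and 10.36 in whole kidney. The anion exchanger gene slc4a2a was higher by 1.29 ± 0.17 (adjusted p = 0.0178) and the sodium pump regulator gene fxyd3, matched through a synonym, by 1.90 ± 0.29 (adjusted p = 0.0240). In irradiated ducts against kidney 5 were higher, among them the pump subunit genes atp1a1a.5 (2.15 ± 0.46, adjusted p = 0.0399) and atp1b2a (1.45 ± 0.33, adjusted p = 0.0480), and the calmodulin gene calm3a was lower (-0.81 ± 0.18, adjusted p = 0.0435). The thiazide-sensitive sodium chloride carrier gene slc12a3 of the distal tubule did not pass in unirradiated ducts against kidney (adjusted p = 0.872). In both lists 0 genes passed in irradiated against unirradiated ducts.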

How the data were processed

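Each deposited value was a log2 expression value of 1 probe set on 1 array. The submitters' processing notes name RMA and affy, without versions, as what the authors used. RMA subtracts background, brings all arrays to 1 distribution and combines the probes of a set, so each value is relative to the other transcripts of its array. The platform's probe table gave the gene symbols, which were updated through gene IDs with a current zebrafish gene table used for names alone. Of 15617 probe sets 115 controls were left out. Of the 15502 tested, 10795 named 1 gene, 135 several and 4572 none.

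One limma fit (limma 3.58.1, R 4.3.3) took all 6 arrays with a mean for each group, 3 residual degrees of freedom and 2.83 prior degrees of freedom. Tests were two-sided. SD and mean use n = 2, SE is limma's moderated standard error, and intervals are 95%. The script was tested on simulated data. With 2 arrays a group, exact permutation cannot pass the threshold and was not used. The number of arrays limits the precision.

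The genes, lists, markers and the rule for named genes were chosen with earlier results of these data known. The rule named every channel gene past the threshold, 5 per direction after irradiation by the smallest p, and members with a known kidney role. The remaining members are named so that all 33 are accounted for. Alternatives were the compared groups alone, the replicate number as a block, eBayes with trend and robust, a filter at a mean log2 of 6, centring on hybridisation controls, the dimmest or the mean of a gene's probe sets, leaving out each array and, chosen after seeing the data, the control centring without kidney replicate 1. No sequences or coordinates were used.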

Additional observations from a re-analysis of the deposited data

How the results depend on the processing

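Of 1320 single-gene values over the alternatives, 1231 kept their side of the threshold without a called value turning sign. A further 28 lost the call and 33 gained one, with the same sign. The last 28 turned sign with a call before the alternative or under it. Of these, aqp8a.1, kcnd1 and scn3b in unirradiated ducts against kidney had the call before. The others, in irradiated against unirradiated ducts, had none before and gained it under the alternative. Unirradiated ducts against whole kidney had 3 channel genes past the threshold, against 1 with the compared groups alone, 1 with the filter at a mean log2 of 6 (11 channel genes left in the test) and 0 to 4 with 1 array left out. The counts of 2 with eBayes with trend and robust, and of 4 with hybridisation controls, with the dimmest probe set and with the mean of probe sets, were within 1.5 times. With hybridisation controls, aqp8a.1 turned to -0.62, kcnd1 to -0.50 and scn3b to -0.72, since this centring lowers every value by 1.55, and the 4 genes past the threshold were aqp1a.1, aqp3a, clic5b and trpm7, all lower. Irradiated against unirradiated ducts had 0, against 1 with hybridisation controls. In any comparison, leaving out 1 array leaves 1 array in its group, so the counts from such fits cannot show how stable a count is. Where that array is from the third group, the fit equals that on the compared groups alone. The alternatives are therefore not all separate fits. The dimmest probe set also repeats the main fit for every channel gene but the 3 with several probe sets. Irradiated ducts against whole kidney had 2, against 1 with the compared groups alone, 0 with hybridisation controls, 4 with the dimmest probe set and 1 to 3 with 1 array left out. With hybridisation controls and kidney replicate 1 left out, an alternative chosen after seeing the data, 4 genes passed in unirradiated ducts against kidney, and 4 in irradiated ducts against kidney. In irradiated against unirradiated ducts 31 passed, all higher, and 14759 of 15502 probe sets passed in either direction. With or without kidney replicate 1, the centring adds 1.39 to every value of this comparison. With all arrays, 147 of 15502 probe sets passed under it. Why more passed without kidney replicate 1 was not tested. Values that were negative with all arrays and without the centring turned for kcnh2a to 0.86, kcnh6a to 0.88, cacnb2b to 0.93, scn3b to 0.94, scn8aa to 0.97, trpm7 to 1.0, aqp9b to 1.01, cacna1ha to 1.03, clic1 and kcnk5a to 1.07 and cacng1a to 1.12. They also turned for cacng2b to 1.14, kcnk1b and trpc4apb to 1.15, aqp12 and kcnn1b to 1.17, cacna1c and kcnd3 to 1.18, scn1laa to 1.23, kcnb2a to 1.24, clcn7 to 1.27, clic4 to 1.29, aqp1a.1 to 1.34 and clcn3 and clcn4 to 1.36. The construction shows the cause for the turned signs under the centring, for the filter and for the probe sets. For the other changes the cause was not tested.

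Samples share replicate numbers, which no label ties to a shared batch. The deviations of same-numbered arrays correlated at -0.0976, -0.0972 and 0.0633, so no shared shift was seen over all probe sets. With 2 arrays per group this cannot exclude a pairing that acts on some genes. With the replicate number as a block, 2 channel genes passed in unirradiated ducts against kidney (kcnd1, and trpm7 as lower) and 3 in irradiated ducts against kidney. In irradiated against unirradiated ducts 0 channel genes passed, and 0 of all 15502 probe sets. Levels under the array medians limit what can be said of 19 of the 33 genes.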
